A study of Mus musculus with 15 samples.

Results

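The integrated stress response and amino acid genes are 35 genes of the ATF4 pathway and of amino acid synthesis and transport. They were taken by symbol from the 42807 symbols of the count table, and all 35 were found. A total of 34 had enough counts to be tested. The exception, Cbs, which makes cystathionine from homocysteine and serine, had 17 counts over all 15 libraries and is not described further. The data are directional mRNA sequencing libraries of C2C12 myotubes, which are multinucleated muscle cells formed by fusion of a mouse myoblast line. All were differentiated for 6 days and collected 24 h after the start of treatment. There were 5 groups of 3 libraries: non-treated myotubes, vehicle (0.1% DMSO), and Jakyak-gamcho-tang (JGT), a herbal preparation extracted from the roots of peony and licorice in hot water, at 20, 100 or 500 µg/mL. The submitters set the highest dose as the maximum tolerable one from a fitted viability curve. No group carried a genetic change or a second drug, and every group came from the same line. The JGT stock was itself made in buffer with DMSO, so DMSO from the stock rises with the dose, with no word in the labels on whether it was made equal. The 6 control libraries and the 9 JGT libraries carry different series of sample codes, although all titles name the same batch, so a JGT effect and a difference between these code series cannot be told apart in a comparison with vehicle. Comparisons between JGT doses are free of that limit.

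The integrated stress response starts when kinases that sense unfolded proteins in the endoplasmic reticulum, lack of amino acids, viral RNA or lack of heme phosphorylate the initiation factor eIF2. General translation then slows, while the mRNA of the transcription factor ATF4 is translated better. ATF4, with partners of the C/EBP family, binds composite sites in its targets and raises genes that make, import and load amino acids, and, under lasting stress, the factor CHOP (Ddit3) and its targets. In skeletal muscle this pathway responds to mitochondrial stress and to fasting, and its amino acid arm feeds protein synthesis through mTORC1. Much of the control of ATF4 is exerted on translation, which mRNA counts do not measure.

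Library totals ran from 26012844 to 36854199 expected counts, and a level is given below as CPM, which are counts scaled to library totals adjusted by TMM. Comparisons of levels are made within a gene. All 12 myotube markers in the table, such as Myog, Ckm and Ttn, had a mean of at least 1 CPM, and their summed level was 22120 to 23280 CPM in vehicle and 22060 to 23790 at 500 µg/mL. Single myotube markers moved in both directions at 500 µg/mL against vehicle. Myog, Mylpf, Des and Tnnt3 rose (log2 0.26, 0.25, 0.29 and 0.13), Ckm, Myh8 and Myh3 fell (−0.48, −0.38 and −0.18), and the others were not called. Markers of proliferating cells (9 of 9 detected) summed to 397 to 410 CPM in vehicle, 327 to 334 at 100 µg/mL and 177 to 190 at 500 µg/mL, and all 9 fell at 500 µg/mL. Reserve and satellite cell markers summed to 199 to 206 CPM in vehicle and 142 to 159 at 500 µg/mL, with 4 of the 6 tested lower, 1 higher, and Calcr at 0 in every library. In bulk RNA, fewer cells of a type and less RNA per cell cannot be told apart, and the part of this shift in the results at 500 µg/mL was not tested. Adipocyte markers summed to at most 0.176 CPM and macrophage markers to at most 1.66 CPM in any library. A single library stood apart: the chi-square per gene between JGT 500 replicate 2 and the other libraries of its dose was 20.1 and 33.1, against 1.97 to 8.93 in the other pairs within groups. It had a mitochondrially encoded share of 4.94%, against 4.27% and 3.47% in replicates 1 and 3 of that dose and 4.74% to 4.94% in vehicle.

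The composite site that ATF4 and C/EBP proteins bind was looked for in the members' promoters, since it shows which members carry the letters of the factor the list is named for. The members were listed as genes of the ATF4 pathway, so a high share is no independent result. RefSeq promoters of the GRCm38.p6 build, 250 bases before to 50 after the start, were in the table for 31 of the 35 genes (38 promoters). The 8-letter motif TGATGNAA, on either strand, was in 9 of the 31 genes (29.0%). It was in 4.51% of the 27025 genes in the promoter table and 2.71% of the 10139 of these that were tested here. The stretches that hold it are printed on the gene's own strand with 10 bases on each side and the motif in capitals, as its reverse complement where it lies on the other strand.
Vldlr: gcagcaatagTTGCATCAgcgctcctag
Chac1: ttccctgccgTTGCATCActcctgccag
Atf3: cttctcgcacTTGCATCAccaagtccgc
Nupr1: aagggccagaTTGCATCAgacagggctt
Got1: attgcattggTTGCATCAtacaagcctc
Slc1a4: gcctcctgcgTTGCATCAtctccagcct
Trib3: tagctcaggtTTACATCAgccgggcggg
Pycr1: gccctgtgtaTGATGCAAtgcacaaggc
Asns: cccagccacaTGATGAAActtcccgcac
The site of Vldlr is at chr19:27216810-27216837 (+ strand), that of Chac1 at chr2:119351039-119351066 (+ strand) and that of Atf3 at chr1:191183426-191183453 (− strand). The site of Nupr1 is at chr7:126625563-126625590 (− strand), that of Got1 at chr19:43524690-43524717 (− strand) and that of Slc1a4 at chr11:20332700-20332727 (− strand). The site of Trib3 is at chr2:152344029-152344056 (− strand), that of Pycr1 at chr11:120643834-120643861 (− strand) and that of Asns at chr6:7693215-7693242 (− strand). Measured from the RefSeq start of the transcript, the first base of the motif lay 23 bases upstream in Asns and 200 upstream in Vldlr, while in Trib3 it lay at base 15 of the transcript. Gene models of the GENCODE M21 annotation have other starts. There, Trib3 starts at 152344032, so its motif lies upstream, and the stretches of Asns, Atf3 and Nupr1 lie inside their gene models. The core was TTGCATCA or its complement TGATGCAA in 7 of these genes, TGATGAAA in Asns and TTACATCA in Trib3. The palindromic cAMP response element TGACGTCA was found in 1 of 31 genes, Ppp1r15a (3.23%), at chr7:45526263-45526290 (− strand). It was in 2.03% of all genes in the promoter table and 3.6% of the 10139 of these that were tested here.
Ppp1r15a: gcctctccggTGACGTCAgcacagcgcc
A match is a description of the letters and does not show that a factor was bound.

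At 500 µg/mL against vehicle, members of the pathway were called in both directions. Of the 34 tested genes, 5 rose and 10 fell by edgeR's quasi-likelihood test at an adjusted p below 0.05, and 19 were not called. Over all 14461 genes tested, 16.5% rose and 16.8% fell. The share of members that rose was 14.7% and the share that fell 29.4%. Their median log2 fold change was −0.01, beside 0.01 for all genes tested, and the 34 values ran from −0.50 to 0.73. The changes were small: 3 genes (Vldlr, Cebpb and Slc7a1) reached a log2 change of 0.5, and for 28 of 34 genes the 95% interval lay within 0.5 on either side of 0, against 9911 of the 14461 genes. Among the 9 genes with the motif, 1 rose (Vldlr), 3 fell (Atf3, Got1 and Pycr1) and 5 were not called, and among the 21 tested genes whose promoter lacks it, 4 rose, 6 fell and 11 were not called. Without JGT 500 replicate 2, 7 members rose and 12 fell, and 6323 genes were called in place of 4815. The number that rose was 2 without vehicle replicate 2, without vehicle replicate 3 or without JGT 500 replicate 3. With non-treated myotubes as control, 4 rose and 9 fell. The JGT doses share their vehicle libraries, so their comparisons with vehicle are set side by side and are not independent.

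**Figure D1:**
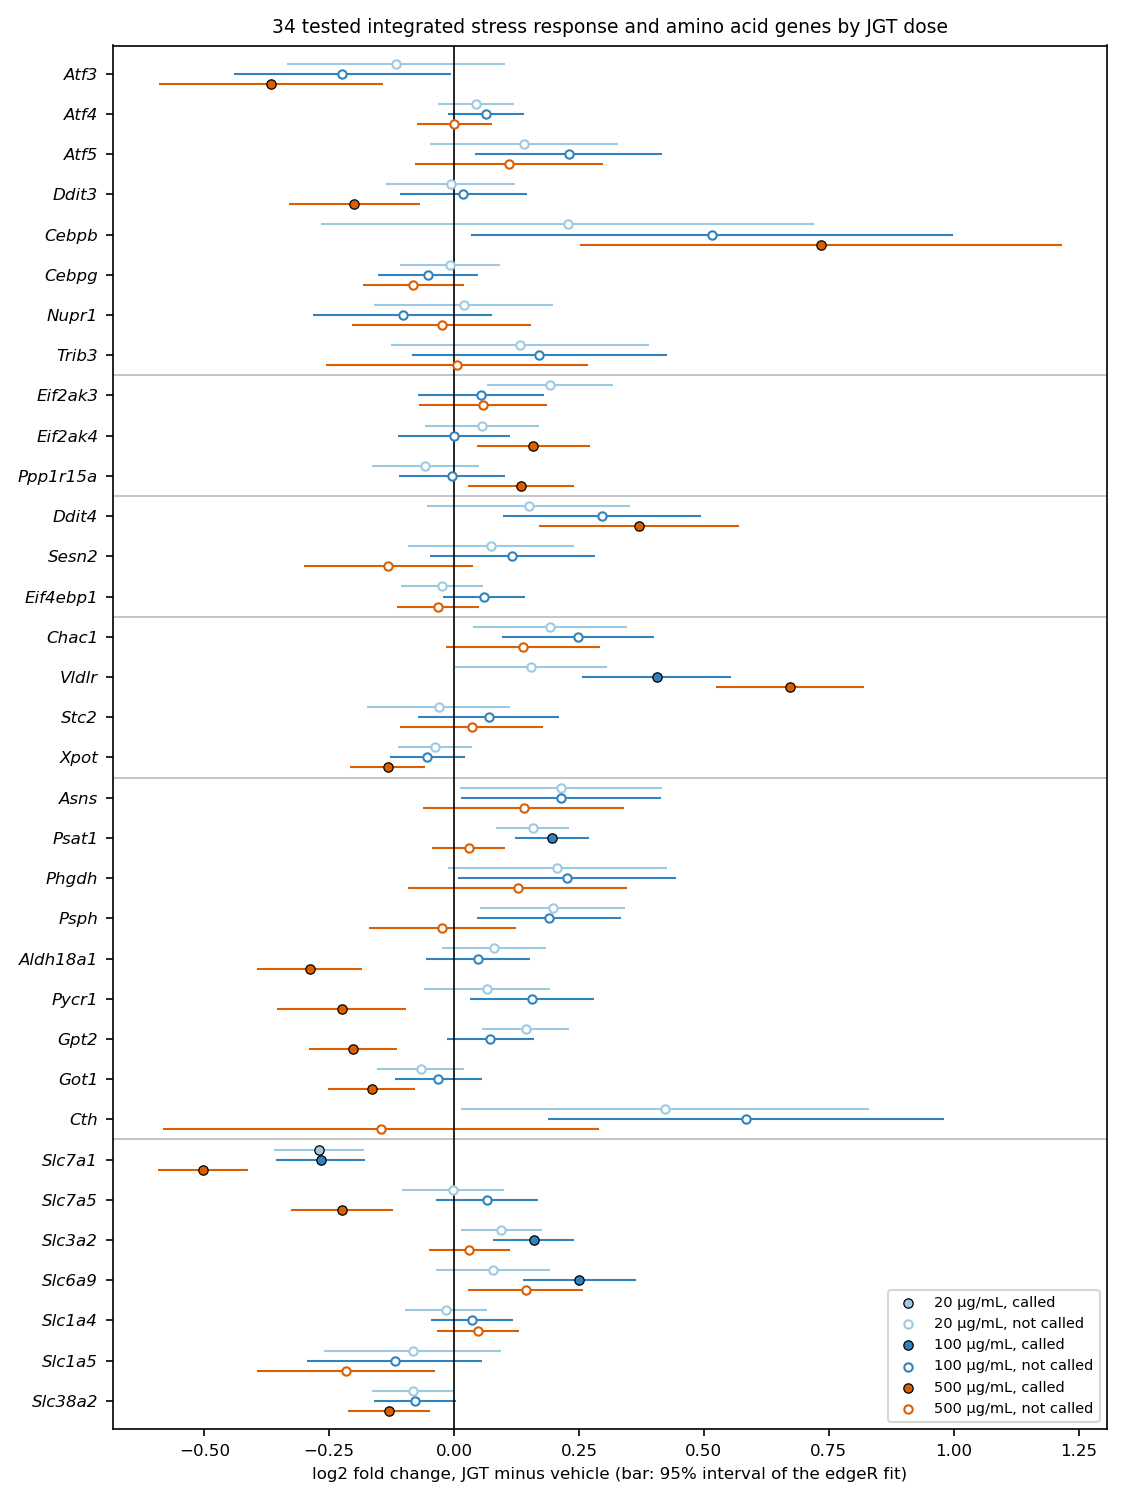
Log2 fold change of each of the 34 tested genes (rows, grouped by role) at JGT 20, 100 and 500 µg/mL against vehicle, with the 95% interval of the edgeR fit; filled points are called at an adjusted p below 0.05. Most intervals lie within 0.5 of 0, the value of Vldlr is higher at each higher dose, Slc7a1 is below 0 at every dose, and Cebpb and Cth have the widest intervals.

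Of the 8 transcription factors and regulators, 1 rose (Cebpb) and 2 fell (Atf3 and Ddit3) at 500 µg/mL, and Atf4 itself was not called. Over all genes tested, 16.5% rose and 16.8% fell at that dose. Atf4 stood at 373, 351 and 356 CPM in the vehicle libraries, 371, 366 and 376 at 20 µg/mL, 374, 374 and 381 at 100 µg/mL and 357, 347 and 377 at 500 µg/mL. The libraries at 100 µg/mL lay just above those of vehicle, without a call (0.06, 0.414), whereas those at 500 µg/mL overlapped vehicle. The log2 change at 500 µg/mL was 0.00 ± 0.0362 (SE, adjusted p = 0.992, 95% interval −0.07 to 0.08). Ddit3, the pro-apoptotic factor CHOP, read 13.4, 13.8 and 13.2 CPM in vehicle, 13.4, 13.00 and 13.8 at 20, 14.6, 13.7 and 12.7 at 100 and 11.3, 12.1 and 11.8 at 500 µg/mL. Every library at 500 µg/mL lay below all 12 others, and Ddit3 fell (log2 −0.20 ± 0.0628, adjusted p = 0.0185). The symbol Ddit3 has 2 gene records in the GENCODE M21 annotation, and how the counts treat them is unknown here. Ddit3 shares 3.97% of its exonic bases with Mars on the opposite strand, which had 59089 counts over all libraries against 6154 of Ddit3. Against 100 and 20 µg/mL the change of Ddit3 was −0.22 and −0.19 (adjusted p = 0.0163 and 0.0290). Atf3, a stress-induced repressor and activator of the same family, went from 5.29 ± 0.733 in vehicle to 4.08 ± 0.317 CPM (SD, n = 3) at 500 µg/mL and fell (−0.37 ± 0.107, adjusted p = 0.0121).

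Trib3, a pseudokinase that CHOP and ATF4 induce and that restrains both, read 7.404, 6.48 and 7.21 CPM in vehicle and 6.01, 6.799 and 8.47 at 500 µg/mL. Its groups overlapped, and its log2 change was 0.01 (adjusted p = 0.975, interval −0.26 to 0.27). Atf5, another factor of the response, lay at 179 ± 5.48 CPM in vehicle, 198 ± 2.47 at 20, 210.4 ± 10.5 at 100 and 194 ± 30.2 at 500 µg/mL. All libraries at 20 and 100 µg/mL were above the vehicle libraries, but Atf5 was not called in the 15-library edgeR fit (adjusted p = 0.609 and 0.195) and was called higher at both doses in the 2-group fit. At 500 µg/mL replicate 2 was at 159 CPM where replicates 1 and 3 were at 206 and 216. Cebpg, an ATF4 partner, and Nupr1, a small stress-induced chromatin protein, were not called at 500 µg/mL (−0.08 and −0.03). Cebpb, a C/EBP factor that cytokines and glucocorticoids also raise, was the 1 factor that rose, with 25.3, 18.6 and 21.8 CPM in vehicle, 26.02, 29.5 and 21.4 at 20, 22.8, 42.8 and 28.2 at 100 and 35.5, 36.04 and 37.96 at 500 µg/mL. The 500 µg/mL libraries were tight and above vehicle, whereas 1 library at 100 µg/mL was the highest of all. Its change was 0.73 ± 0.217 (1.66-fold, adjusted p = 0.0245), and against 20 µg/mL it was 0.51, called in the 2-group fit but not in the 15-library fit or by DESeq2. Cebpb shares 20.7% of its exonic bases with Tmem189 on the opposite strand, which had 73156 counts over all libraries against 13039 of Cebpb. The kit keeps the strand, but how strand was used in counting is unknown here.

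The calls of these 3 factors depended on single libraries. The fall of Ddit3 against vehicle was not called without vehicle replicate 2 or JGT 500 replicate 1, in a fit of only the 2 groups, or with DESeq2 (adjusted p up to 0.0686), that of Atf3 not without vehicle replicate 2 or JGT 500 replicate 3 or in the 2-group fit (up to 0.0850). The rise of Cebpb was lost without vehicle replicate 2 or 3, or without JGT 500 replicate 1 or 3 (up to 0.0877), with a log2 change between 0.63 and 0.85 under the 12 alternatives. Against non-treated myotubes Cebpb was not called either (0.59, 0.0600).

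**Figure D2:**
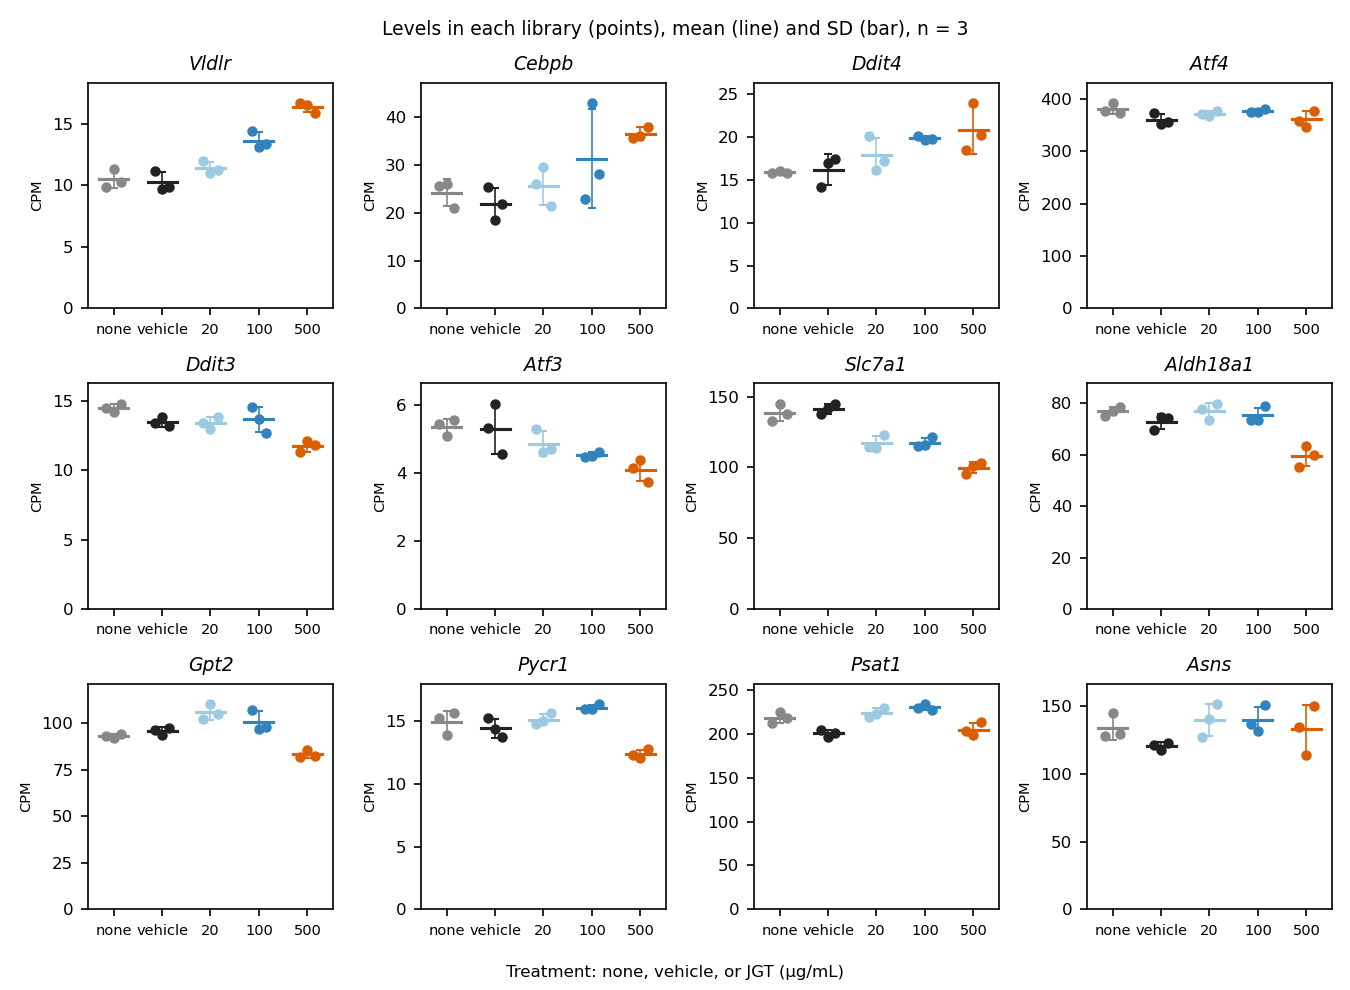
CPM of 12 of the genes in each of the 15 libraries (points; line, mean; bar, SD; n = 3 per group), by treatment. Vldlr climbs from about 10 to about 16 CPM with dose, Slc7a1 steps down at 20 and again at 500 µg/mL, Atf4 stays between 347 and 391 CPM, and Aldh18a1, Gpt2 and Pycr1 are low only at 500 µg/mL among the groups shown.

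Of the kinases that start the response, the kinase of endoplasmic reticulum stress PERK (Eif2ak3) read 21.9, 20.6 and 21.7 CPM in vehicle, 22.95, 26.2 and 24.2 at 20 and 23.6, 20.3 and 22.97 at 500 µg/mL. It was highest at 20 µg/mL, and at no dose was it called (adjusted p = 0.223 at 20 and 0.498 at 500 µg/mL). The amino acid sensor GCN2 (Eif2ak4) read 20.6, 18.8 and 20.1 CPM in vehicle, 20.6, 19.3 and 19.7 at 100 and 21.4, 22.04 and 23.1 at 500 µg/mL. The libraries at 500 µg/mL were above all 12 others, and Eif2ak4 rose 1.12-fold over vehicle (log2 0.16 ± 0.0542, adjusted p = 0.0291) and 1.12-fold over 100 µg/mL (adjusted p = 0.0403). Ppp1r15a (GADD34), the phosphatase subunit that ends the response by dephosphorylating eIF2, went from 42.6 ± 2.19 to 46.8 ± 1.197 CPM (0.13 ± 0.0510, adjusted p = 0.0494), and from 40.98 ± 1.800 CPM at 20 µg/mL (0.19 ± 0.0508, 0.00892). The call of Ppp1r15a against vehicle was lost in 9 of 12 alternatives (adjusted p up to 0.276), among them DESeq2, the 2-group fit and leaving out vehicle replicate 2 or 3 or JGT 500 replicate 1 or 3. That against 20 µg/mL was lost in 1, without JGT 20 replicate 1 (0.0761). The call of Eif2ak4 against vehicle was lost in 6 alternatives (up to 0.139), among them leaving out vehicle replicate 2 or 3 or JGT 500 replicate 3, and it was not called against non-treated myotubes (0.13, 0.0815). Its call against 100 µg/mL was lost in 8 (up to 0.173), among them leaving out any JGT 100 replicate or JGT 500 replicate 1 or 3.

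Of 3 genes that hold back mTORC1 or cap-dependent translation, 1 was called at 500 µg/mL, beside 16.5% of all genes higher and 16.8% lower. Ddit4 (REDD1), which inhibits mTORC1 and is raised by glucocorticoids and hypoxia as well as by ATF4, read 14.1, 16.97 and 17.4 CPM in vehicle, 20.1, 19.7 and 19.7 at 100 and 18.4, 23.9 and 20.2 at 500 µg/mL. All libraries of these 2 doses lay above vehicle. Ddit4 rose 1.29-fold at 500 µg/mL (log2 0.37 ± 0.0950, adjusted p = 0.00591), a call kept under the 12 alternatives and also against non-treated myotubes. It was not called in the 15-library fit at 100 µg/mL against vehicle (0.30, 0.0959) or between 500 and 20 µg/mL (0.22, 0.0969). Sesn2, the leucine-sensing sestrin, was not called against vehicle at 500 µg/mL (−0.13, 0.224). Between the 2 higher doses it went from 22.00 ± 1.88 to 18.5 ± 2.304 CPM and fell (−0.25 ± 0.0787, 0.0319), with overlapping groups and a call lost in 6 alternatives (up to 0.174), among them leaving out JGT 100 replicate 2 or 3 or JGT 500 replicate 1 or 3. Eif4ebp1, the translation repressor 4E-BP1, stayed between 134 and 153 CPM in all 15 libraries and was not called in any comparison.

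Among the other stress targets, Vldlr, the very low density lipoprotein receptor, had the smallest adjusted p of the members that rose. It read 9.89, 11.3 and 10.3 CPM in non-treated myotubes, 11.2, 9.68 and 9.88 in vehicle, 11.96, 11.03 and 11.2 at 20, 14.4, 13.1 and 13.3 at 100 and 16.7, 16.5 and 15.9 at 500 µg/mL. The libraries at 100 µg/mL were above all at lower doses and in the controls, and those at 500 µg/mL were above all at 100. The log2 change against vehicle was 0.15 ± 0.0732 (adjusted p = 0.467), 0.41 ± 0.0713 (0.00166) and 0.67 ± 0.0709 (3.19e-07, 1.59-fold) in order of dose. Vldlr also rose from 20 to 500 µg/mL (0.52 ± 0.0692, 9.98e-06) and from 100 to 500 µg/mL (0.27 ± 0.0673, 0.00801), the last call being lost without JGT 100 replicate 2 (0.0522). The gene lies on chromosome 19 at 27216484 to 27254231 on the + strand in the GENCODE M21 annotation of GRCm38, so the composite site printed above, upstream of the RefSeq start, lies inside that gene model.

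Chac1, an enzyme that degrades glutathione and is a sensitive readout of ATF4 and CHOP, read 27.2, 29.8 and 29.3 CPM in vehicle, 35.3, 30.9 and 32.1 at 20, 33.7, 35.7 and 32.9 at 100 and 28.00, 35.99 and 30.7 at 500 µg/mL. Every library at 20 and 100 µg/mL exceeded vehicle, without a call in the 15-library fit (0.19, adjusted p = 0.357, and 0.25, 0.0637), and at 500 µg/mL the groups overlapped (0.14, 0.163). Without JGT 500 replicate 1 Chac1 was called higher at 500 µg/mL (0.21, 0.0317). At 100 µg/mL it was called by DESeq2, in the 2-group fit and against non-treated myotubes. Stc2, a secreted glycoprotein, stayed between 11.96 and 14.98 CPM and was not called in any comparison. Xpot, the exporter of tRNA from the nucleus, fell at 500 µg/mL (log2 −0.13 ± 0.0360, adjusted p = 0.00739), from 121 ± 1.17 to 111 ± 3.12 CPM.

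Enzymes that make amino acids fell at 500 µg/mL or were not called: 4 of the 9 tested fell and 5 were not called, with a median of −0.15. Over all genes tested, 16.5% rose and 16.8% fell. Aldh18a1 and Pycr1, the first and last enzymes of proline synthesis from glutamate, both fell. Aldh18a1 read 69.6, 74.5 and 74.4 CPM in vehicle, 77.8, 73.4 and 79.7 at 20, 73.6, 73.4 and 78.8 at 100 and 55.2, 63.5 and 60.01 at 500 µg/mL. All libraries at 500 µg/mL were below the other 12, with a change of −0.29 ± 0.0503 against vehicle (adjusted p = 0.000160) and −0.37 against 20 µg/mL (1.22e-05). Pycr1 went from 14.4 ± 0.767 CPM in vehicle and 16.1 ± 0.218 at 100 µg/mL to 12.3 ± 0.364 at 500 µg/mL. It fell against vehicle (−0.22 ± 0.0619, adjusted p = 0.00826), against 100 µg/mL (−0.38 ± 0.0600, 0.000112) and against 20 µg/mL (−0.29 ± 0.0610, 0.00136).

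The alanine and aspartate transaminases, which move amino groups between amino acids and keto acids, fell as well. Gpt2, the mitochondrial alanine transaminase, read 95.95, 93.5 and 97.4 CPM in vehicle, 102, 109.9 and 105 at 20, 107, 96.6 and 98.00 at 100 and 81.8, 85.3 and 82.3 at 500 µg/mL. The libraries at 500 µg/mL were the 3 lowest of the 15, with a change of −0.20 ± 0.0421 against vehicle (adjusted p = 0.000944) and −0.34 ± 0.0419 against 20 µg/mL (2.99e-06). Got1, the cytosolic aspartate transaminase, went from 62.7 ± 0.723 to 55.9 ± 1.901 CPM (−0.17 ± 0.0419, adjusted p = 0.00457). It was not called between 500 and 20 µg/mL (−0.10, 0.0962). The calls of Aldh18a1, Pycr1 and Gpt2 at 500 µg/mL were kept under the 12 alternatives with vehicle as control and with non-treated myotubes in its place. That of Got1 was kept under the 12 and lost against non-treated myotubes (−0.09, 0.130).

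Serine synthesis genes and asparagine synthetase, the textbook metabolic targets of ATF4, gave few calls against vehicle. Psat1, the phosphoserine aminotransferase, was at 218 ± 5.89 CPM in non-treated myotubes, 201 ± 3.87 in vehicle, 224 ± 5.38 at 20, 229.8 ± 3.29 at 100 and 205 ± 7.26 at 500 µg/mL. It rose at 100 µg/mL (0.20 ± 0.0352, adjusted p = 0.00202), was not called at 20 (0.16, 0.0648) or 500 µg/mL (0.03, 0.562), and fell from 100 to 500 µg/mL (−0.17 ± 0.0351, 0.00197). Vehicle held the lowest mean of Psat1, and against non-treated myotubes the rise at 100 µg/mL was not called. Phgdh, the first enzyme of serine synthesis, read 116, 119 and 118 CPM in vehicle, 138, 127 and 148 at 100 and 129.8, 109.6 and 146 at 500 µg/mL. Asns read 128, 145 and 129.7 CPM in non-treated myotubes, 122, 117 and 123 in vehicle, 128, 141 and 151 at 20, 137, 132 and 151 at 100 and 135, 114 and 150.2 at 500 µg/mL. For both genes all libraries at 100 µg/mL were above vehicle and those at 500 µg/mL spread across it, with replicate 2 below every vehicle library, and neither was called in any comparison of the 15-library fit (Asns at 500 µg/mL 0.14, adjusted p = 0.278, interval −0.06 to 0.34). Without JGT 500 replicate 2, Asns was called higher at 500 µg/mL (0.23, 0.0435). In the fit of the 2 groups alone, both were called higher at 100 µg/mL and lower in vehicle than in non-treated myotubes.

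Psph, the last enzyme of serine synthesis, fell from 18.3 ± 1.42 CPM at 20 and 18.1 ± 1.21 at 100 to 15.7 ± 1.22 at 500 µg/mL (−0.22 and −0.21, adjusted p = 0.0250 and 0.0336), with overlapping groups. Against 20 µg/mL the call of Psph was lost without JGT 20 replicate 3 or JGT 500 replicate 1 or 2 (up to 0.129), and against 100 µg/mL without JGT 100 replicate 2 or 3 or JGT 500 replicate 1 or 2 (up to 0.150). Both calls of Psph were also lost in the 2-group fit, and that against 100 µg/mL with library totals as the scaling. The call of Psat1 between 500 and 20 µg/mL (−0.13, 0.0114) was lost without JGT 20 replicate 3 (0.0519) and in the 2-group fit (0.0879). Psph shares 10.4% of its exonic bases with Cct6a on the opposite strand, which had 109316 counts over all libraries against 7936 of Psph. Cth, which makes cysteine from cystathionine, was near the lower end of detection, at 1.08, 1.196 and 1.48 CPM in vehicle, 1.33, 2.08 and 1.699 at 20, 1.97, 1.68 and 2.01 at 100 and 0.934, 1.29 and 1.16 at 500 µg/mL. Its libraries at 500 µg/mL were below all those at 20 and 100 and overlapped vehicle. Cth fell from 100 to 500 µg/mL (−0.73 ± 0.190, adjusted p = 0.00991), a call lost without JGT 500 replicate 1 (0.0571), and from 20 to 500 µg/mL (−0.57 ± 0.196, 0.0408), a call lost in 6 alternatives (up to 0.194), among them leaving out JGT 20 replicate 2 or 3 or JGT 500 replicate 1 or 3.

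**Figure D3:**
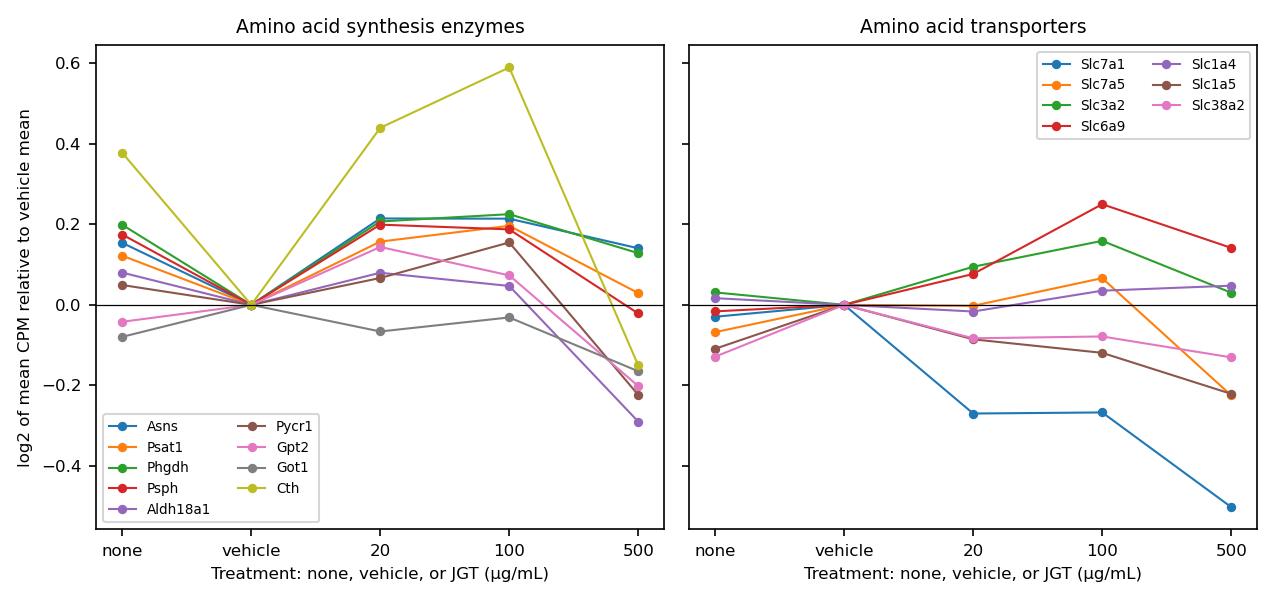
Log2 of the group mean CPM relative to the vehicle mean for the 9 tested amino acid synthesis enzymes (left) and the 7 amino acid transporters (right), by treatment; each line is 1 gene, with no error shown. For 8 of the 9 enzymes the mean at 20 and 100 µg/mL is above vehicle, for 7 of the 9 the non-treated mean is above it too, for 5 of the 9 the mean at 500 µg/mL is at least 0.1 below it, and Slc7a1 is the transporter furthest below vehicle at each dose.

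Of the 7 amino acid transporters, 3 fell at 500 µg/mL (Slc7a1, Slc7a5 and Slc38a2) and none was called higher there in the 15-library edgeR fit or by DESeq2. In the edgeR fit 16.5% of all genes tested rose and 16.8% fell at that dose. Slc7a1 (CAT-1), the importer of arginine and lysine, fell at each dose. It read 133, 145 and 138 CPM in non-treated myotubes, 138, 142 and 145 in vehicle, 115, 114 and 123 at 20, 115, 116 and 121 at 100 and 95.2, 101 and 103 at 500 µg/mL. All JGT libraries lay below all 6 control libraries, and those at 500 µg/mL lay below those at the lower doses, which overlapped each other. The change against vehicle was −0.27 ± 0.0430 at 20 (adjusted p = 0.00459), −0.27 ± 0.0428 at 100 (0.000746) and −0.50 ± 0.0432 at 500 µg/mL (1.63e-08). Between 20 and 100 µg/mL it was 0.00, and between 20 and 500 µg/mL −0.23 ± 0.0432 (0.000433). Each of these calls was kept under the 12 alternatives, and those against vehicle also with non-treated myotubes as control. The step at 20 µg/mL coincides with the change of code series and cannot be told apart from it, whereas the step from 100 to 500 µg/mL (−0.24 ± 0.0431, 0.000554) lies within 1 series. Slc7a1 lies on chromosome 5 at 148327410 to 148399904 on the − strand.

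The large neutral amino acid exchanger LAT1 is a pair of a light chain, Slc7a5, and a heavy chain, Slc3a2, and calls were made for these mRNAs at different doses. Slc7a5 went from 222 ± 1.16 CPM in vehicle and 232 ± 10.1 at 100 to 189.7 ± 13.04 at 500 µg/mL and fell against both (−0.22 ± 0.0492, adjusted p = 0.00147, and −0.29 ± 0.0491, 0.000232). Slc3a2, at 171 ± 6.01 CPM in vehicle, rose at 100 µg/mL (0.16 ± 0.0386, adjusted p = 0.0196) and was not called at 500 µg/mL (0.03, 0.584). The difference between the responses of these genes was not tested. The rise of Slc3a2 was lost without vehicle replicate 2 or 3 or JGT 100 replicate 1 or 3 (up to 0.146), and its fall from 100 to 500 µg/mL (−0.13, 0.0230) was lost without JGT 100 replicate 3 or JGT 500 replicate 1 (up to 0.107), in the 2-group fit and with library totals as the scaling.

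Slc6a9, the glycine transporter GlyT1, rose at 100 µg/mL from 50.8 ± 0.214 to 60.4 ± 2.199 CPM (0.25 ± 0.0543, adjusted p = 0.00907), a call lost without JGT 100 replicate 2 (0.0693). At 500 µg/mL it read 51.7, 61.8 and 54.5 CPM, above vehicle in each library, and was not called in the 15-library fit (0.14 ± 0.0548, 0.0505). It was called higher at 500 µg/mL with library totals as the scaling, without the filter on low counts, and against non-treated myotubes (0.16, 0.0316). Slc6a9 shares 27.8% of its exonic bases with Ccdc24 on the opposite strand, which had 768 counts over all libraries against 25197 of Slc6a9. Slc38a2 (SNAT2), an importer of small neutral amino acids that amino acid lack induces, fell by a small amount at 500 µg/mL, from 457 ± 4.84 to 417 ± 26.2 CPM (−0.13 ± 0.0394, adjusted p = 0.0150), a call lost without JGT 500 replicate 1 or 3 or in the 2-group fit (up to 0.0886). Against non-treated myotubes, at 418 ± 12.2 CPM, Slc38a2 was not called. Slc1a4 and Slc1a5, exchangers of neutral amino acids, were not called in any comparison, with values at 500 µg/mL of 0.05 and −0.22 (adjusted p = 0.379 and 0.0575).

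The lower doses and the vehicle moved few of these genes. Vehicle against non-treated myotubes gave no call among the 34 genes with edgeR, beside 0.553% of all genes higher and 0.754% lower. In that comparison 5 members had an unadjusted p under 0.05, DESeq2 called 1 (Psat1, lower), and the 2-group fit called Slc38a2 higher and Asns, Phgdh and Psat1 lower. At 20 µg/mL against vehicle, 1 member was called, Slc7a1, where 0.173% of all genes were higher and 0.152% lower. A further 10 had an unadjusted p under 0.05, and DESeq2 also called Psat1 higher. The shares of all genes in this paragraph count adjusted calls, so they are no yardstick for the counts at an unadjusted p. The 2-group fit called Atf5, Chac1, Gpt2 and Psat1 higher. At 100 µg/mL, 4 of the 34 members rose (Psat1, Slc3a2, Slc6a9 and Vldlr) and 1 fell (Slc7a1), beside 2.09% and 2.22% of all genes. The members' median was 0.07 at 20 and 0.07 at 100 µg/mL, beside 0.00 for all genes at both doses. With the spread estimated from the 100 µg/mL and vehicle libraries alone, 11 members rose: Asns, Atf5, Chac1, Cth, Ddit4, Phgdh, Psat1, Psph, Slc3a2, Slc6a9 and Vldlr. That 2-group fit called 1369 genes in all, against 623 in the edgeR fit of all libraries. Against non-treated myotubes in the fit of all libraries, Chac1, Ddit4, Slc3a2, Slc6a9 and Vldlr of these 11 were called higher at 100 µg/mL. The others were not called there, at 0.06 (Asns), 0.03 (Phgdh), 0.01 (Psph), 0.21 (Cth), 0.07 (Psat1) and 0.16 (Atf5). The shares of all genes in this paragraph come from the fit of all libraries. They are therefore no yardstick for the members called in a 2-group fit.

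Between doses, where the code series does not differ, most called members fell. From 20 to 500 µg/mL, 2 rose (Vldlr and Ppp1r15a) and 9 fell (Aldh18a1, Cth, Ddit3, Gpt2, Psat1, Psph, Pycr1, Slc7a1 and Slc7a5), beside 11.1% of all genes higher and 12.2% lower. The members' shares were 5.88% and 26.5%, and their median was −0.08, beside 0.01. From 100 to 500 µg/mL, 2 rose (Vldlr and Eif2ak4) and 12 fell, beside 9.05% and 10.7% of all genes, with a median of −0.10, beside 0.00. Without JGT 500 replicate 1 the number that fell was 6, and without JGT 20 replicate 3 the number that fell from 20 to 500 µg/mL was 5. The 12 were Aldh18a1, Cth, Ddit3, Got1, Gpt2, Psat1, Psph, Pycr1, Sesn2, Slc3a2, Slc7a1 and Slc7a5. The fall of Got1 in that step (−0.13, adjusted p = 0.0280) was lost without JGT 100 replicate 1 or 3 or JGT 500 replicate 1 (up to 0.0967), in the 2-group fit and with library totals as the scaling. That of Ddit3 was lost without JGT 100 replicate 1 or JGT 500 replicate 1 (up to 0.0845) and in the 2-group fit. The fall of Ddit3 from 20 µg/mL was lost without JGT 20 replicate 1 or 3 or JGT 500 replicate 1 or 3 (up to 0.100). It was also lost with DESeq2, in the 2-group fit and without the low count filter. From 20 to 100 µg/mL no member was called in the 15-library edgeR fit or by DESeq2, and 0.297% of all genes were higher and 0.131% lower in the edgeR fit. The 2-group fit called Slc6a9 higher (191 genes called in all, against 62). In the 15-library fit 4 members had an unadjusted p under 0.05, a cut-off that those shares do not use.

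Other genes of the pathway, taken from lists of textbook members, gave calls in both directions at 500 µg/mL against vehicle. Over all genes tested, 16.5% rose and 16.8% fell in that comparison. Of 16 further genes of eIF2 and its regulators, 2 rose and 2 fell: Oma1, the mitochondrial protease that relays organelle stress to the response (9.24 to 12.7 CPM, log2 0.45 ± 0.0659, adjusted p = 2.2e-05), and Impact, an inhibitor of GCN2 (0.11), rose. Ppp1r15b, the constitutive counterpart of Ppp1r15a (−0.15), and Eif2s3x, a subunit of eIF2 (−0.13), fell. Of 19 further ATF4 targets, 2 rose and 4 fell, with a median of −0.02. Sqstm1 and Map1lc3b, autophagy genes that other stress factors also control, rose (0.52 and 0.29). Aldh1l2, a mitochondrial folate enzyme (65.1 to 52.6 CPM, −0.31 ± 0.0469, 3.69e-05), and Fgf21, a hormone released by stressed muscle (30.00 to 21.4 CPM, −0.48 ± 0.0825, 0.000185), fell, as did Shmt2 (−0.20) and Herpud1 (−0.17). Aldh1l2 was instead higher than vehicle at 20 (0.26, 0.0133) and 100 µg/mL (0.29, 0.000689), and lower in vehicle than in non-treated myotubes (−0.21, 0.0249).

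Of 27 other amino acid enzymes, 4 rose and 7 fell, with a median of −0.06, beside 16.5% and 16.8% of all genes tested. Bcat1, the cytosolic branched-chain transaminase, fell (27.9 to 18.8 CPM, −0.58 ± 0.0534, adjusted p = 4.85e-08), as did Ass1, which makes argininosuccinate (−0.40), and Mat2a, which makes S-adenosylmethionine (−0.27). Glul, glutamine synthetase, rose (118 to 150.5 CPM, 0.36 ± 0.0412, 1.2e-06). Of 17 other amino acid transporters, 3 rose and 3 fell. The glutamate importer Slc1a3 rose most by p (12.6 to 18.3 CPM, 0.55 ± 0.0676, 2.83e-06), Slc7a2 (CAT-2), a second importer of cationic amino acids, rose (0.18, 0.00335), and the mitochondrial glutamate carrier Slc25a22 (−0.28) and Slc7a6 (−0.19) fell.

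The 20 cytosolic aminoacyl-tRNA synthetases, many of which ATF4 induces, gave 2 higher (Dars 0.20, Qars 0.17) and 1 lower (Iars −0.25, adjusted p = 2.4e-05), and Vars, at −0.16, was not called (0.0567). Among 20 endoplasmic reticulum chaperone and unfolded protein genes 3 rose (Dnajb11, Creld2 and Dnajc3) and 3 fell (Syvn1, Edem1 and Xbp1), within log2 changes of −0.24 and 0.28. Of 22 regulators of amino acid sensing and mTORC1, 4 rose (Mtor 0.16, Depdc5 0.18, Sesn1 and Gatsl2) and 4 fell (Rps6kb1 −0.16, Sesn3 −0.16, Ddit4l and Mlst8). The shares of all genes tested at 500 µg/mL were 16.5% higher and 16.8% lower. At 100 µg/mL the same lists held 6 called genes: Aldh1l2, Cebpd (0.26), Vegfa (0.13), Glul (0.15) and Slc7a7 (0.53) rose, and Slc36a4 (−0.18) fell. Over all genes tested at that dose, 2.09% rose and 2.22% fell, and the list sizes are those given above. A few genes stand in more than 1 of these lists.

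**Figure D4:**
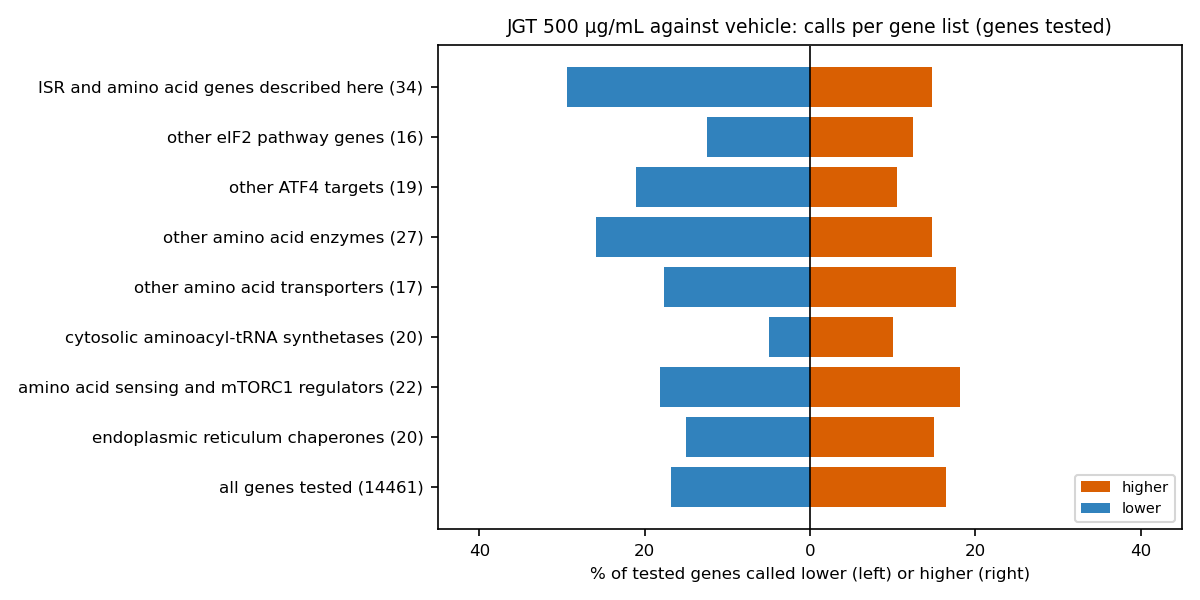
Percent of tested genes called higher (right) or lower (left) at JGT 500 µg/mL against vehicle in the members, in 7 related gene lists and in all genes tested, with the number tested in parentheses. The members have 29.4% lower and 14.7% higher, and all genes 16.8% and 16.5%.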

How the data were processed

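Values are expected counts for each gene symbol as the authors deposited them, with no normalization. The submitters' processing notes name RSEM 1.3.3, STAR 2.7.3a, Trim Galore 0.6.5, FastQC 0.11.9 and the build GRCm38 (mm10), with roles, annotation and strand option not given in the sources used here. Of the values, 9.34% were not whole (tolerance 0.005), and all were rounded. Columns were matched to samples by the codes in the labels, and replicate numbers come from the titles. The labels do not say that replicates were separate cultures, so p-values cover only how these libraries vary, part or all of which may be technical. The chi-square per gene was at least 1.97 in every pair of libraries within a group, so none was counted as a repeat.

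In R 4.3.3 with edgeR 4.0.16, filterByExpr left 14461 of 42807 genes. TMM factors were 0.988 to 1.02. All 15 libraries entered 1 robust quasi-likelihood fit with a mean per group (10 residual degrees of freedom) and 7 comparisons, with Benjamini-Hochberg adjustment over all genes tested and calls below 0.05. A log2 fold change is the first group minus the second, ± its standard error, with 95% intervals from the same fit. The fit was also run on counts simulated from its own estimate of spread, a check of the code that cannot show how an outlying library acts. DESeq2 1.42.0, other scalings, filters, controls, a replicate block and left-out libraries were alternatives. Same-numbered libraries did not deviate together (4 of 30 pairs correlated over 0.1), so the numbers were not used to pair. The members, lists and tests were chosen with earlier results of these data known. By rule, values in every library were given for members called with a log2 change of at least 0.5 and a mean of at least 1 CPM and for 7 fixed genes, with others added after their values were seen, and the 4 genes with the smallest p at 500 µg/mL were named per list. Positions are from GENCODE M21 and promoters from RefSeq.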

Additional observations from a re-analysis of the deposited data

How the results depend on the processing

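Of 46 calls of members over the 7 comparisons, 25 kept their direction and their side of the threshold under the 12 alternatives other than the exchange of controls, and none of the 46 changed sign under them. With non-treated myotubes as control, Got1 at 500 and Psat1 at 100 µg/mL were lost from these 25. That exchange was run only for the 21 calls against vehicle, so the calls between doses among the 25 were not put to it. That exchange lost 5 of 21 calls against vehicle in all, Cebpb, Eif2ak4 and Slc38a2 at 500 µg/mL being the others. The 46 calls and 5 uncalled genes at 500 µg/mL (Atf4, Trib3, Asns, Chac1 and Eif2ak3) gave 612 values under the 12 alternatives, of which 514 kept both, 88 lost the call, 2 gained one and 8 changed sign. The 8 belong to genes that were not called: Atf4 at 500 µg/mL against vehicle was −0.00075 with RLE size factors, −0.00025 without the low count filter, −0.00103 with DESeq2, and −0.035 to 0.0209 on leaving out 1 library (below 0 without vehicle replicate 2, at −0.0164, vehicle replicate 3, at −0.0134, or JGT 500 replicate 3). Trib3 ran from −0.137 to 0.106 on leaving out 1 library (below 0 without JGT 500 replicate 3, and at −0.0472 without vehicle replicate 2). The gained calls among these values are those of Asns and Chac1. Other uncalled members gained calls too: Slc6a9 was higher at 500 µg/mL with library totals, without the low count filter and against non-treated myotubes, Psph was lower there against non-treated myotubes, and Ppp1r15a was higher from 100 to 500 with library totals.

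The cause of the shifts that follow was not tested. With the spread taken from the 2 groups compared alone, 1 member was higher and 3 lower in vehicle than in non-treated myotubes (1031 genes called in all, against 189). In the same fit 4 members were higher at 20 µg/mL (330 genes, against 47), 11 at 100 µg/mL (1369, against 623) and 3 at 500 µg/mL, against vehicle. Between doses that fit gave 1 member higher from 20 to 100 µg/mL (191 genes, against 62), 1 higher and 7 lower from 100 to 500 (1313, against 2853) and 5 lower from 20 to 500 (1982, against 3369). DESeq2 gave 1 member lower in vehicle than in non-treated myotubes (319 genes), 1 higher at 20 µg/mL (95 genes), 3 higher at 500 µg/mL and 1 higher from 100 to 500. Without the low count filter 1 member was higher at 20 µg/mL (73 genes) and 1 from 100 to 500. Against non-treated myotubes 1 member, Gpt2, was higher at 20 µg/mL, and Chac1 and Ddit4 gained calls at 100. With library totals as the only scaling, 58.5% of the calls from 100 to 500 µg/mL were higher, against 45.9%, and 55.9% from 20 to 100, against 69.4%.

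Leaving out 1 library gave 2 to 7 members higher and 8 to 12 lower at 500 µg/mL against vehicle (3704 to 6323 genes called, main 4815). From 100 to 500 µg/mL the ranges were 1 to 3, 6 to 14 and 1880 to 4989, and from 20 to 500 µg/mL 2 to 3, 5 to 11 and 2532 to 5165. The 2 members higher at 500 µg/mL were found without vehicle replicate 2 or 3 or JGT 500 replicate 3, the 6323, 4989 and 5165 genes without JGT 500 replicate 2, and the 1880 genes without JGT 100 replicate 2. For 100 µg/mL against vehicle 315 to 409 genes were called, for 20 µg/mL 18 to 36, for 20 to 100 µg/mL 19 to 41, and for vehicle against non-treated 36 to 88. With the replicate number as a block, 4 members were higher and 10 lower at 500 µg/mL against vehicle (4757 genes called), and the call of Ppp1r15a was lost (adjusted p = 0.0513), while Sesn2 gained one from 20 to 500 µg/mL. Same-numbered libraries correlated at −0.324 to 0.119, so the numbers do not pair them. Cth, with about 1 CPM, is limited by depth.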
